A study of Mus musculus with 4 samples.

Results

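Levels of 8 transcription factor genes that direct bone and cartilage maturation were followed in single cells sorted from the mouse spine, namely Runx2, Runx1, Runx3, Sp7, Dlx5, Dlx3, Mef2c and Cbfb. They were taken by symbol from the 32286 genes listed for each library, and all 8 were found. The cells came from thoracic and lumbar vertebrae (T11 to L2) and were tdTom+, which means that Cre recombinase expressed from the Prss56 locus had switched on the red fluorescent reporter in them or in their ancestors, the boundary cap lineage. There were 4 libraries, 1 for each genotype and age, made with 10x Genomics 3′ chemistry, in which each RNA molecule is counted once by a unique molecular identifier (UMI). Control mice (Prss56-Nf1 +/+) carried 1 Cre allele and wild-type Nf1, mutant mice (Prss56-Nf1 fl/fl) carried 2 Cre alleles and 2 floxed Nf1 alleles, and every mouse carried the R26tdTom reporter on both alleles. Both genotypes were sampled at 3 months and at 12-16 months of age, the number of mice pooled in a library was not given, and Cre dose and Nf1 genotype, which change together, cannot be told apart. Cells positive for CD45, CD11b or CD31 and dead cells had been removed in the sort.

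Nf1, the floxed gene, was measured at 131 CPM (its UMIs per 1000000 UMIs of all genes; 95% Poisson interval 124 to 139) in the 3-month library labelled control and 150 (141 to 159) in the one labelled mutant. At 12-16 months the control-labelled library held 147 CPM (131 to 164) and the mutant-labelled one 125 CPM (115 to 136). Nf1 counts were therefore not lower under the mutant label at 3 months, and 3′ counts would also record RNA from which only inner exons were removed, so they do not check the labels. Directions between genotypes are given below as between libraries that carry those labels.

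RUNX proteins bind DNA as heterodimers with CBFβ, the product of Cbfb. Runx2 is the master regulator of the osteoblast and also drives the late, hypertrophic stage of chondrocytes, where Runx3 acts beside it, whereas Runx1 is best known from blood formation and is also found in cartilage and periosteal progenitors. Sp7 (Osterix) acts downstream of Runx2 and is required for osteoblasts to form. Dlx5 and Dlx3 are homeobox factors that activate Runx2, Sp7 and osteocalcin genes, and Mef2c is a MADS-box factor that promotes chondrocyte hypertrophy through Runx2 and Col10a1 and regulates Sost in osteocytes.

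Of 2172 cell barcodes, 1757 were kept as cells because they held over 750 UMIs from over 500 genes with mitochondrial UMIs under 7%. They were 717 control-labelled and 484 mutant-labelled cells at 3 months, and 135 and 421 at 12-16 months. No barcode was shared between libraries. Cells were then placed by genes outside the 8, with the first rule met being kept. Endplate cells had at least 1 Sox9 UMI and at least 3 UMIs of Zfp804b plus Dab1, other cartilage cells had at least 1 Sox9 and 3 Acan UMIs, stroma cells had at least 10 Cxcl12 UMIs, and bone cells had no Sox9 UMI with at least 3 UMIs of Slit2, Tnc and Postn together or at least 100 of Col1a1. These rules took 222 endplate, 1065 other cartilage, 88 stroma and 57 bone cells, 1432 in all, and left 325 cells out.

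Some marker genes outside the gate rules were read in the gates, which does not test the gate names. Col2a1, which does not part the 2 cartilage gates, was detected in 99.5% of endplate and 87.7% of other cartilage cells. Bglap and Ibsp were detected in 75.4% and 91.2% of bone cells, and Lepr and Kitl in 90.9% and 98.9% of stroma cells. The edges between gates were not sharp. Of the 88 stroma cells, 74 also met the bone rule and Ibsp was detected in 90.9% of them, and 221 of the 222 endplate cells also met the rule for other cartilage. The control-labelled libraries held 21 bone cells at 3 months and 13 at 12-16 months, and the mutant-labelled ones 5 and 18. In the library with 5, which held 60987 UMIs, 2 cells had at least 3 UMIs of the mural gene Acta2, and the 4 mural markers summed to 7723 CPM against 911 CPM or less in bone cells of the other libraries. The 5 immune markers summed to 1092 CPM in the 10 stroma cells of the 12-16-month library labelled control and to at most 8.09 CPM in the other libraries. Runx2 and Mef2c in the 5 bone cells without the Acta2 cells are therefore given below beside their values with them.

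All 8 factors were measured, but their levels fell into different patterns over the gates. Runx2 was highest in stroma and bone, Runx1 in stroma, Runx3 and Cbfb in endplate cells and Dlx3 in bone. Other cartilage had the lowest Runx2, Sp7 and Dlx5 in every library and, of the 8, a measurable level of Runx1 in most of its cells. The median number of the 8 factors detected per cell was 6 in bone, 5 in endplate cells, 5 in stroma and 2 in other cartilage. In the 5 bone cells of the 3-month library labelled mutant it was 3. These counts were not thinned to a common depth, and depth differed between gates.

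**Figure D1:**
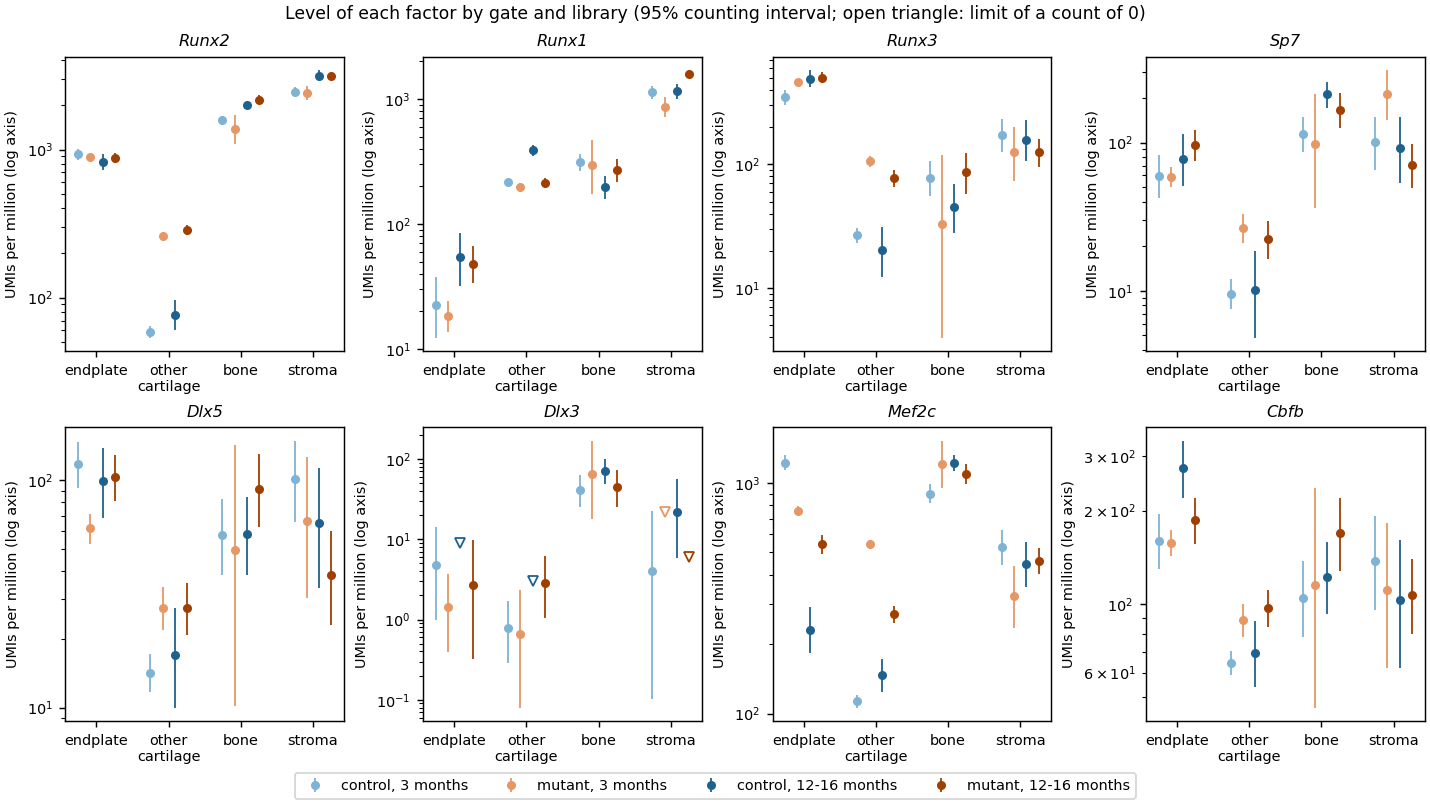
Level of each factor in CPM (log axis) in each of the 4 gates, with 1 point per library, bars for the 95% Poisson interval and open triangles for the limit that a count of 0 allows. Runx2 went from other cartilage (59.0 to 288 CPM) over endplate (826 to 927 CPM) and bone (1377 to 2178 CPM) to stroma (2405 to 3155 CPM), whereas Runx1 was lowest in endplate cells (18.3 to 54.1 CPM).

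Runx2 (ENSMUSG00000039153, GRCm38 chromosome 17, 44495987 to 44814797, minus strand), the master gene of the osteoblast lineage, had the same order of summed CPM in all 4 libraries. Stroma cells held 2458 CPM (control-labelled) and 2405 CPM (mutant-labelled) at 3 months, and 3155 and 3122 CPM at 12-16 months. Bone cells held 1581, 1377, 1996 and 2178 CPM in the same order of libraries (3-month control, 3-month mutant, 12-16-month control, 12-16-month mutant), which is kept below. Endplate cells held 927, 889, 826 and 876 CPM, a range narrower than in any other gate. Other cartilage held 59.0, 259, 76.5 and 288 CPM, so that the libraries labelled mutant stood above those labelled control at both ages. Without the Acta2 cells, Runx2 in the 3 bone cells that remained in the 3-month library labelled mutant was at 2198 CPM. The gates did not overlap in summed Runx2 CPM between libraries. With every cell weighted equally, bone held 2577, 1512, 3102 and 2963 CPM and stroma 2458, 2135, 3044 and 2695 CPM. The order of these 2 gates thus depended on the weighting. Over all libraries Runx2 was detected in 98.2% of endplate cells, 93.0% of bone cells, 98.9% of stroma cells and 16.5% of other cartilage cells.

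Cells that reached 3000 UMIs were thinned to that depth, since the median depth was 18633 UMIs in endplate and 11241 in other cartilage cells. Shallower cells were left out, which kept 222 endplate, 54 bone and 84 stroma cells. Runx2 shares were then 81.4%, 84.0%, 97.2% and 9.66% in endplate, bone, stroma and other cartilage. A possible background from free RNA was read from 86 cells outside the gates with a UMI of the immune gene Ptprc (median 9164.5 UMIs). Runx2 was detected in 37.2% of them, at 113 CPM, and in 22.7% after thinning, for which 67 of the 86 were deep enough. This value rested on the 3-month library labelled mutant, which gave 123 of the 139 UMIs (145 CPM, 54.8% of its 42 cells). Without it Runx2 was at 42.1 CPM and in 20.5% of 44 cells. At 3 months these cells held 44.5 CPM (1 UMI) under the control label and 145 CPM under the mutant label, which is the direction of the label ratio in other cartilage given below, and the part of free RNA in that ratio was not tested. The 42 Ptprc cells of the 3-month library labelled mutant had no Sp7 or Dlx5 UMI. Whether their Runx2 UMIs were free RNA or their own was not tested. The share in other cartilage as a whole (16.5%) lay below both Runx2 shares of the Ptprc cells and is not by itself read as expression. The other gates lay above both shares. Immune cells also transcribe Runx1, Runx3 and Mef2c, so these cells give no background for them, and Sp7, Dlx5 and Dlx3 had no UMI there, which allows a share of up to 3.49% of cells.

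Runx1 (ENSMUSG00000022952, chromosome 16, 92601466 to 92826149, minus strand) had nearly the opposite order within cartilage. Endplate cells held 22.6, 18.3, 54.1 and 48.2 CPM and other cartilage 219, 197, 391 and 212 CPM. The lowest library of other cartilage was thus above the highest of endplate cells. Bone cells held 312, 295, 197 and 270 CPM, a range that overlapped other cartilage. In stroma, Runx1 reached 1136, 863, 1151 and 1580 CPM, above all other gates, and 86 of 88 stroma cells had UMIs of both Runx1 and Runx2. Over other cartilage cells, 691 of 1065 had a Runx1 UMI and none of Runx2, and 95 had both.

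Runx3 (ENSMUSG00000070691, chromosome 4, 135120652 to 135177990, plus strand) was highest in endplate cells in every library, at 348, 467, 493 and 500 CPM. Stroma held 174, 125, 157 and 125 CPM and bone 78.1, 32.8, 45.0 and 85.9 CPM. In other cartilage the values were 26.8 and 20.1 CPM in the libraries labelled control and 105 and 77.1 CPM in those labelled mutant. UMIs of both Runx2 and Runx3 were found in 210 of 222 endplate cells, where each was detected in nearly every cell (98.2% and 95.9%). In other cartilage 88 of 1065 cells had both and 5 had Runx3 without Runx2. Cbfb (ENSMUSG00000031885, chromosome 8, 105170674 to 105217989, plus strand), the shared partner, varied less, from 64.5 CPM in other cartilage to 273 CPM in endplate cells over the 16 values of gate and library, and endplate cells were the highest gate in each library.

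The stretches before the start sites of the RUNX genes are shown because these genes part most clearly between the cartilage gates and RUNX proteins are known to regulate their own family. RefSeq windows from 250 bases before to 50 bases after a start (GRCm38.p6) were at hand for 5 of the 8 genes, in 9 windows, and were searched on both strands for the core RUNX letters TGTGGT. These letters are in 16.8% of all 32851 windows of the same length. They were found in 3 of the 9 member windows, namely 3 matches for Runx2 (17:44814578-44814877), 2 for the upstream start of Runx1 (16:92826025-92826324) and 2 for the upstream start of Runx3 (4:135120395-135120694), and in none for Cbfb or Mef2c. The parts upstream of annotated exons are printed 5′ to 3′ on the strand of the gene, with a match on either strand in capitals, and they hold both matches of Runx3, whereas those of Runx1 and Runx2 lie in the exonic part that is not printed. A match describes the letters of the window and does not show a bound site.
Runx3, 4:135120395-135120644, plus strand: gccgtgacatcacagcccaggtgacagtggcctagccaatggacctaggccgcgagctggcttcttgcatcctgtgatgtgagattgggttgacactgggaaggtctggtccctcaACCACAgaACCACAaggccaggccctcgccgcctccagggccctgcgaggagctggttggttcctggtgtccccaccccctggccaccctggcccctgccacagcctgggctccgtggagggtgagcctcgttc
Runx1, 16:92826150-92826324, minus strand: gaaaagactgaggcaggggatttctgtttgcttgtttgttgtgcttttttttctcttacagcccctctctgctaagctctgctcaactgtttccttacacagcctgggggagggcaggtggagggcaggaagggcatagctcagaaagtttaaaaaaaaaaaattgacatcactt
Runx2, 17:44814798-44814877, minus strand: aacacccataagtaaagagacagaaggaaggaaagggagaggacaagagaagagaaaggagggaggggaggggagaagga

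Sp7 (ENSMUSG00000060284, chromosome 15, 102356606 to 102367182, minus strand), the factor that commits cells to the osteoblast, was highest in bone in 3 libraries. Bone cells held 115, 98.4, 212 and 166 CPM, stroma 101, 214, 92.3 and 70.5 CPM, endplate cells 59.7, 58.9, 78.1 and 96.3 CPM and other cartilage 9.55, 26.5, 10.1 and 22.2 CPM. Bone and stroma overlapped, whereas other cartilage lay below all other gates in every library. UMIs of both Sp7 and Runx2 were found in 120 of 222 endplate cells and 42 of 57 bone cells, which says nothing of a link, since nearly all cells of these gates had Runx2. In other cartilage, where 16.5% of cells had Runx2, 70 of the 92 cells with Sp7 had both. Per cell the counts were low, with a median of 1 Sp7 UMI in endplate and 2 in bone cells.

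Dlx5 (ENSMUSG00000029755, chromosome 6, 6877805 to 6882085, minus strand) and Dlx3 (ENSMUSG00000001510, chromosome 11, 95120119 to 95125296, plus strand) did not share a pattern. Dlx5 was at 118, 61.4, 99.1 and 103 CPM in endplate cells, 57.6, 49.2, 57.9 and 91.8 CPM in bone, 101, 66.4, 65.2 and 38.3 CPM in stroma and 14.3, 27.4, 17.1 and 27.4 CPM in other cartilage. The endplate, bone and stroma ranges overlapped. Dlx3 was at 41.1, 65.6, 70.7 and 44.4 CPM in bone cells (72 UMIs), while only 9 UMIs were counted in endplate cells, 14 in other cartilage and 5 in stroma. In bone, 27 of 57 cells had both Sp7 and Dlx3, and 1 had Dlx3 without Sp7. Sp7 was detected in 75.4% of bone cells, and independent detection would give 21.1 cells with both. A link was not tested. No Dlx3 UMI was counted in endplate and other cartilage cells of the 12-16-month library labelled control, or in stroma of both libraries labelled mutant, and the 3 counts that a count of 0 allows come to between 3.02 and 22.1 CPM there.

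Mef2c (ENSMUSG00000005583, chromosome 13, 83504034 to 83667080, plus strand) was the member whose level varied most between libraries of 1 gate. Endplate cells held 1225, 758, 231 and 542 CPM and other cartilage 113, 542, 147 and 269 CPM, so that these gates overlapped. Bone cells held 898, 1213, 1222 and 1096 CPM and stroma 526, 325, 445 and 459 CPM, with no overlap between bone and stroma. Without the Acta2 cells, Mef2c was at 1413 CPM in bone cells of the 3-month library labelled mutant. Few cells carried much of the endplate signal, where the top 10% of cells held 59.2% of Mef2c UMIs against 35.0% of Runx2 UMIs.

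To compare the gates, UMIs were summed per gate and library, and edgeR's quasi-likelihood test was run on all 14487 genes with at least 20 UMIs over the 16 sums, with the library as a block and Benjamini-Hochberg adjustment. The 4 libraries serve as the replicates, although they differ in genotype and age. The block absorbs only the part of such a difference that all gates share. Where a ratio between gates changed with genotype or age, its log2 ratio is a mean over unlike libraries. Differences are log2 ratios with their standard errors.

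Between endplate and other cartilage, 6 of the 8 factors passed the test, 5 of them higher in endplate cells, where 19.4% of all genes tested passed and 8.76% were higher. Runx3 was higher in endplate cells by 2.86 ± 0.36 (adjusted p = 6.1e-06), Runx2 by 2.27 ± 0.40 (adjusted p = 0.00026), Dlx5 by 1.88 ± 0.29, Sp7 by 1.86 ± 0.34 and Cbfb by 1.03 ± 0.22 (adjusted p = 0.0015). Runx1 was lower, at -3.14 ± 0.29 (adjusted p = 1.7e-07). Mef2c at 1.17 ± 0.44 (adjusted p = 0.068) and Dlx3 at 0.86 ± 0.85 (adjusted p = 0.54) did not pass, although Mef2c did under 7 of the alternative settings. The direction held in each library for Runx2, whose level was 15.7, 3.43, 10.8 and 3.04 times that of other cartilage, and for Runx1, at 0.103, 0.0932, 0.138 and 0.227 times. The endplate to other cartilage ratio of Runx2 was smaller in the libraries labelled mutant, where other cartilage itself held more Runx2, and this difference between labels was not tested. When the gates were set on cells thinned to 3000 UMIs, Dlx5 (adjusted p = 0.11) and Cbfb (adjusted p = 0.30) no longer passed.

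Between bone and other cartilage, 5 of the 8 passed, all higher in bone, against 26.5% of all genes in either direction and 10.3% higher. Dlx3 differed most, at 5.30 ± 0.62 (adjusted p = 9.4e-07), followed by Runx2 at 3.45 ± 0.42, Sp7 at 3.22 ± 0.36 (adjusted p = 4.7e-07), Mef2c at 2.11 ± 0.45 and Dlx5 at 1.59 ± 0.34. Runx1 at 0.01 ± 0.27, Runx3 at 0.35 ± 0.41 and Cbfb at 0.64 ± 0.24 (adjusted p = 0.050) did not pass. Runx1 was higher in bone in 3 of the 4 libraries. Cbfb lay at the threshold and passed under 8 of the alternative settings.

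Bone and endplate cells differed in 5 of the 8 factors, against 24.2% of all genes in either direction, 10.7% higher and 13.5% lower. Bone had more Dlx3 (4.44 ± 0.69, adjusted p = 4.0e-05), Runx1 (3.15 ± 0.31, adjusted p = 7.8e-08), Sp7 (1.36 ± 0.34, adjusted p = 0.0055) and Runx2 (1.18 ± 0.38, adjusted p = 0.027) and less Runx3 (-2.51 ± 0.39, adjusted p = 4.8e-05). Dlx5 at -0.29 ± 0.32, Mef2c at 0.95 ± 0.44 and Cbfb at -0.39 ± 0.24 did not pass. The Runx2 call was the weakest of these. It was lost without the 3-month library labelled control (adjusted p = 0.0515), the 12-16-month library labelled control (0.119) or the 12-16-month library labelled mutant (0.102), although bone was above endplate in each of the 4 libraries, by 1.71, 1.55, 2.42 and 2.48 times.

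Stroma differed from bone in 3 of the 8 factors, against 9.52% of all genes in either direction, 5.22% higher and 4.3% lower. Runx1 was higher in stroma by 1.78 ± 0.27 (adjusted p = 0.00014), and Dlx3 (-3.78 ± 0.75, adjusted p = 0.0018) and Mef2c (-1.72 ± 0.44, adjusted p = 0.014) were lower. Runx2 at 0.24 ± 0.37 (adjusted p = 0.80) and Sp7 at -0.97 ± 0.37 (adjusted p = 0.11) did not pass. Most stroma cells met the bone rule too, and with the bone rule applied first, which left 2, 1, 1 and 10 stroma cells, edgeR called none of the 8 at an adjusted p under 0.05. With gates set on thinned cells the Runx1 difference was 0.62 (adjusted p = 0.536) and no longer passed.

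**Figure D2:**
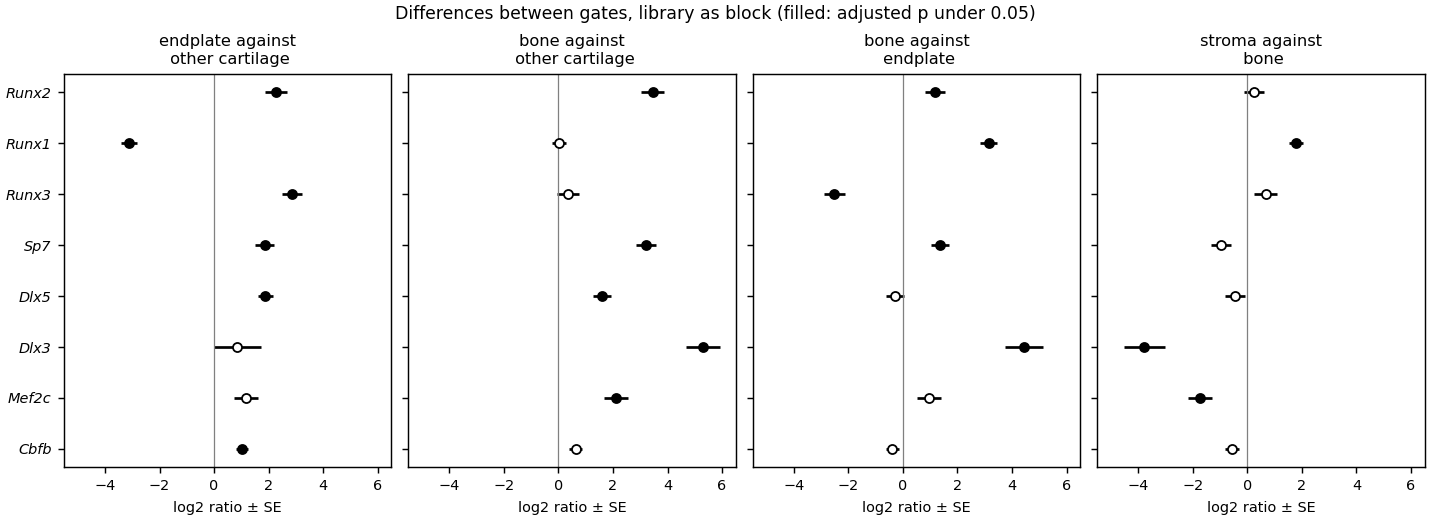
Log2 ratio between gates for each factor (points) with its standard error (bars) in the 4 comparisons, from edgeR with the library as a block, filled where the adjusted p was under 0.05. Runx1 and Runx3 lie on opposite sides of 0 in endplate against other cartilage (-3.14 and 2.86) and in bone against endplate (3.15 and -2.51).

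The endplate gate is a threshold of 3 UMIs of Zfp804b plus Dab1, and all 1287 cartilage cells were therefore also ordered by that count. At a count of 0, in 1027 cells, Runx2 was at 116 CPM, Runx3 at 41.1 CPM and Runx1 at 230 CPM. At a count of 1, in 26 cells that were still outside the gate, Runx2 was already at 675 CPM and Runx3 at 247 CPM, with Runx1 at 145 CPM. At a count of 2, in 12 cells just outside it, the values were 533, 308 and 64.3 CPM, and at a count of 3, in 18 cells just inside it, 664, 441 and 15.9 CPM. Over the libraries together, Runx2 and Runx3 thus differed more between 0 and 1 UMI than across the threshold. From a count of 2 to 3, Runx2 went from 187 to 481 CPM in the 3-month library labelled control. Under the mutant label it went from 617 to 899 CPM at 3 months and from 568 to 560 CPM at 12-16 months. For Runx1 the ratio was larger across the threshold, but the difference in CPM was larger between 0 and 1 UMI. The Runx1 step across the threshold rested on 14 UMIs at a count of 2 and 6 at a count of 3. Of the 14 UMIs, 13 came from mutant-labelled cells at 12-16 months. At 3 months, Runx1 rose there from 0 UMIs to 34.6 CPM under the mutant label and went from 1 UMI to 0 under the control label. Cells with 10 or more UMIs, 137 in number, held 876 CPM of Runx2, 469 of Runx3 and 19.8 of Runx1. Zfp804b and Dab1 span 575747 and 1125486 bases, Runx2 318811 bases, and UMIs of genes over 100000 bases made up 20.7% of all UMIs in endplate and 13.2% in other cartilage cells, and the part of gene length in the result was not tested beyond a refit in which UMIs of long genes set the scale.

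**Figure D3:**
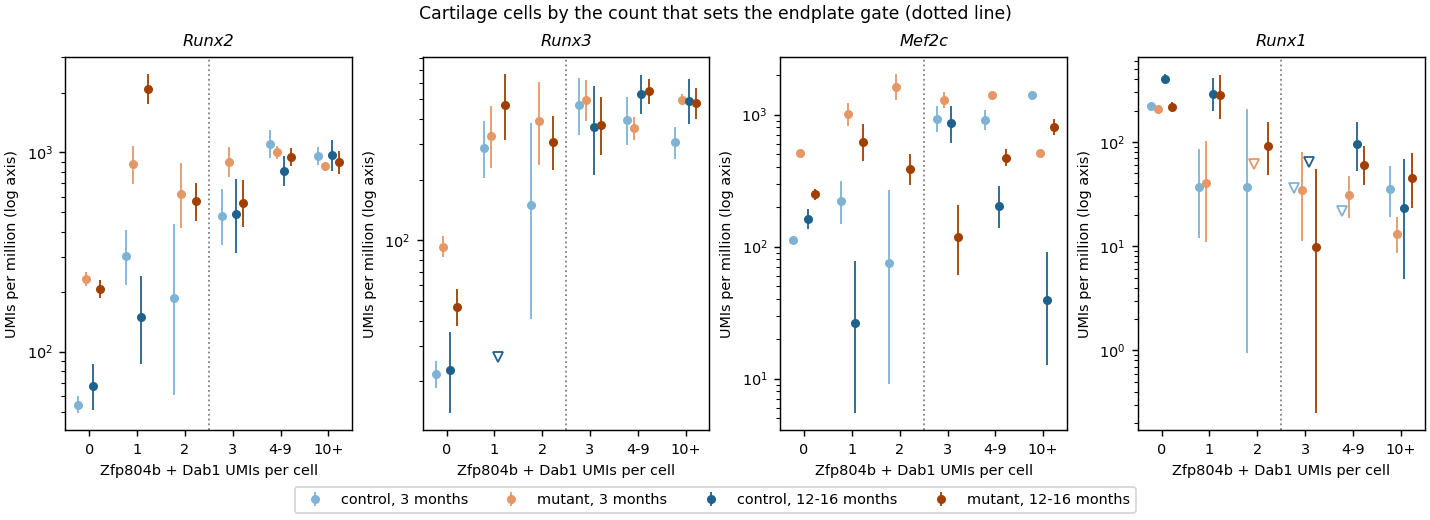
Levels in CPM (log axis) of selected factors in cartilage cells grouped by their UMIs of Zfp804b plus Dab1, with 1 point per library and a dotted line at the endplate threshold of 3. Over the libraries together Runx2 lay at 116 CPM at a count of 0 and at 675 CPM at a count of 1.

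Within other cartilage, Runx2 was held by few cells. Only 92 of 1065 cells (8.64%) had 3 or more Runx2 UMIs, and the share ran from 3.85% to 15.7% between libraries. These 92 cells carried 94.3% of the Runx2 UMIs of the gate. These cells were chosen by Runx2, and the values of the other factors in them are a description. Against the 889 cells with no Runx2 UMI they held 322 against 1.23 CPM of Runx3, 81.7 against 2.36 CPM of Sp7, 83.1 against 8.02 CPM of Dlx5, 1214 against 63.2 CPM of Mef2c and 167 against 59.7 CPM of Cbfb. Runx1 was lower in them, at 67.8 against 254 CPM, and in every library. Hypertrophy genes were high in the same cells, with Col10a1 (type X collagen) at 1934 against 150 CPM, Ihh (Indian hedgehog) at 316 against 1.98 CPM and Prkg2 at 1710 against 3.87 CPM, and the fibroblast marker Dcn was at 2437 against 8469 CPM. The 84 cells with 1 or 2 Runx2 UMIs lay between these groups, with 97.3 CPM of Mef2c, 39.4 CPM of Runx3, 17.6 CPM of Sp7, 12.6 CPM of Dlx5 and 237 CPM of Runx1. Cbfb was at 57.1 CPM there, just under the cells without Runx2.

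**Figure D4:**
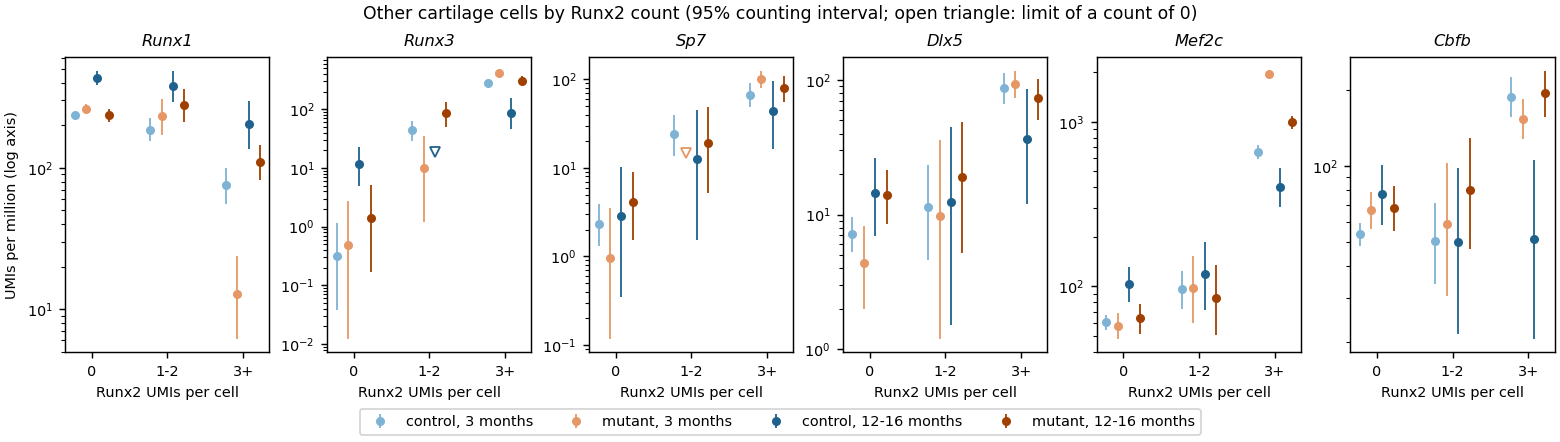
Levels of 6 factors in CPM (log axis) in other cartilage cells with 0, 1 to 2 and 3 or more Runx2 UMIs, with 1 point per library, bars for the 95% Poisson interval and open triangles for the limit of a count of 0. Runx3 stood at 275, 410, 88.0 and 308 CPM in cells with 3 or more Runx2 UMIs and at 0.313, 0.481, 11.5 and 1.39 CPM in those without, in the order of libraries of the legend.

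Endplate cells were also split by their hypertrophy genes. The 145 cells with at least 3 UMIs of Col10a1, Ihh and Prkg2 together held 949 CPM of Mef2c and 78.8 CPM of Sp7, and the other 77 held 125 and 29.2 CPM. Over all libraries Runx2 was at 895 and 864 CPM and Runx3 at 475 and 404 CPM, but the libraries went different ways, and 52 of the 77 cells below the threshold came from the 3-month library labelled mutant. By library, Runx2 was at 1115, 868, 694 and 935 CPM in cells with hypertrophy genes and at 604, 947, 1650 and 464 CPM below the threshold, and Runx3 at 329, 477, 544 and 527 CPM and at 381, 437, 174 and 313 CPM. Mef2c was at 1886, 986, 220 and 591 CPM in cells with hypertrophy genes and at 92.0, 115, 304 and 194 CPM below the threshold. Mef2c was thus higher in cells with hypertrophy genes in 3 libraries, the exception being the 12-16-month library labelled control, and only 2 of its cells lay below the threshold.

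Bone cells split by Col1a1 differed in Runx2 in the other direction. The 33 cells with 100 or more Col1a1 UMIs held 1342 CPM of Runx2, 138 CPM of Runx1 and 43.0 CPM of Runx3, whereas the 24 cells below 100 held 4348, 848 and 179 CPM. Over all libraries, Sp7 was at 175 against 93.8 CPM and Dlx3 at 61.8 against 12.8 CPM, so these were higher in the Col1a1-rich cells. By library, Sp7 below 100 was at 156, 0, 55.3 and 70.1 CPM, against 115, 98.4, 212 and 166 CPM in all bone cells. Sp7 thus went the other way in the 3-month library labelled control. By library, Runx2 was at 774, 2394, 1760 and 1350 CPM in Col1a1-rich cells and at 5134, 74.8, 7855 and 4149 CPM below 100. The 3-month library labelled mutant went the other way, and the 2 Acta2 cells, with no Runx2 UMI, were among its 3 cells below 100. Bone cells below 100 Col1a1 UMIs were closer in Runx2 and Runx1 to stroma (2882 and 1311 CPM over all libraries) than to the Col1a1-rich bone cells. Since Col1a1 itself stood at 107805 CPM in bone cells, a level there is a share of a total that 1 gene helps to set.

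Each genotype and age was 1 library, so a difference between labels at 1 age carries no test. Such differences are given as ratios of CPM with exact binomial intervals, which cover counting error only, and a ratio of at least 1.5 either way with at least 20 UMIs in the pair was counted. In other cartilage at 3 months, 5 of 7 factors with enough UMIs were past 1.5-fold, all higher under the mutant label, where 25.8% of all genes were past it in either direction and 12.2% were higher. Mef2c was 4.79 times (4.41 to 5.21), Runx2 4.39 times (3.90 to 4.94), Runx3 3.93 times (3.29 to 4.71), Sp7 2.77 times (1.99 to 3.85) and Dlx5 1.92 times (1.43 to 2.58) as high. At 12-16 months 6 of 7 were past 1.5-fold, against 25.1% of all genes. The same 5 were higher, where 11.8% of genes were, with Runx3 at 3.83 times (2.40 to 6.44), Runx2 at 3.77 times (2.96 to 4.84), Sp7 at 2.21 times (1.10 to 4.90), Mef2c at 1.83 times (1.53 to 2.22) and Dlx5 at 1.60 times (0.921 to 2.94), whose interval includes 1. Runx1 was lower under the mutant label at 12-16 months, where 13.3% of genes were, at 0.542 times (0.472 to 0.623), and was at 0.900 times (0.818 to 0.988) at 3 months. Cbfb was at 1.37 and 1.40 times, short of 1.5.

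Over both ages, the labels were compared in edgeR's quasi-likelihood test on the 4 libraries of a gate with age as a term, which leaves 1 residual degree of freedom, so that the spread comes mostly from other genes. In other cartilage 4 of the 7 factors tested were higher under the mutant label, where 1.92% of all 13042 genes passed and 1.4% were higher. They were Runx2 at 2.05 ± 0.27 on the log2 scale (adjusted p = 1.9e-06), Runx3 at 1.97 ± 0.27 (6.2e-06), Mef2c at 1.62 ± 0.30 (0.00063) and Sp7 at 1.37 ± 0.33 (0.015). Dlx5 at 0.86 ± 0.31 (adjusted p = 0.21), Cbfb at 0.49 ± 0.25 (0.59) and Runx1 at -0.49 ± 0.27 (0.65) did not pass. Without the age term only 1 of the 7 passed. In endplate cells, bone and stroma edgeR called none of the 7, 8 and 7 factors tested, with none at an unadjusted p under 0.05, against 0.0806%, 0.129% and 0.392% of all genes called. Runx2 differed there by 0.01 ± 0.33, -0.35 ± 0.77 and -0.07 ± 0.30, and the difference between gates in the label effect was not tested.

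The share of other cartilage cells with 3 or more Runx2 UMIs comes from the same Runx2 counts as these ratios and adds no support to them. It was 5.26% (28 of 532 cells; 3.53% to 7.52%) and 15.7% (37 of 235; 11.3% to 21.0%) at 3 months under the control and mutant labels, and 3.85% (3 of 78; 0.80% to 10.8%) and 10.9% (24 of 220; 7.12% to 15.8%) at 12-16 months. The summed hypertrophic markers of other cartilage, Col10a1, Ihh and Prkg2, were at 414 and 1061 CPM at 3 months and at 174 and 1542 CPM at 12-16 months under the same labels, and the 3 endplate markers at 4.19 and 20.2 CPM and at 6.04 and 82.3 CPM. Median depth was 12581 and 11380 UMIs at 3 months and 10287 and 7614 UMIs at 12-16 months. The part of these in the ratios was not tested. Among other cartilage cells with no Zfp804b or Dab1 UMI, Runx2 was 4.28 times (3.78 to 4.86) as high under the mutant label at 3 months. At 12-16 months Runx2 was 3.08 times (2.34 to 4.12) as high there. These cells were not chosen by the hypertrophic markers, and whether endplate cells remained among them was not tested. In these cells 5 of 7 factors were past 1.5-fold at each age, against 25.7% and 25.9% of all genes. All 5 were higher at 3 months, whereas 4 were higher and 1 lower at 12-16 months.

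Endplate cells showed little of this. Runx2 was at 0.958 times (0.875 to 1.05) at 3 months and 1.06 times (0.920 to 1.23) at 12-16 months under the mutant label, and 2 of 7 factors (both lower) and 1 of 7 (higher) were past 1.5-fold. Among all genes 37.6% (16.1% lower) and 33.6% (19.3% higher) were. The factors were Dlx5 at 0.522 times (0.395 to 0.696) and Mef2c at 0.619 times (0.569 to 0.673) at 3 months, and Mef2c at 2.34 times (1.83 to 3.03) at 12-16 months. In bone cells 1 factor was higher and 1 lower at 3 months (59.9% of all genes past 1.5-fold, 32.1% higher and 27.8% lower), and 2 were higher and 1 lower at 12-16 months (39.3%, 29% and 10.3%). In stroma 1 was higher and 2 were lower at 3 months (43.1%, 19.5% and 23.5%), and 1 was lower at 12-16 months (37.3%, 12.3% lower). Runx2 was at 0.871 (0.687 to 1.09) and 1.09 times (0.989 to 1.20) in bone and at 0.978 (0.852 to 1.12) and 0.990 times (0.899 to 1.09) in stroma. Without the Acta2 cells, 3-month bone held 1616 CPM of Runx2 under the control label and 2198 CPM under the mutant label, the opposite direction. Sp7 in stroma at 3 months was at 2.12 times (1.20 to 3.77), from 25 control-labelled and 29 mutant-labelled UMIs. Of the 29 UMIs, 12 came from 1 cell, and Sp7 was detected in 58.8% of control-labelled and 58.3% of mutant-labelled stroma cells.

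**Figure D5:**
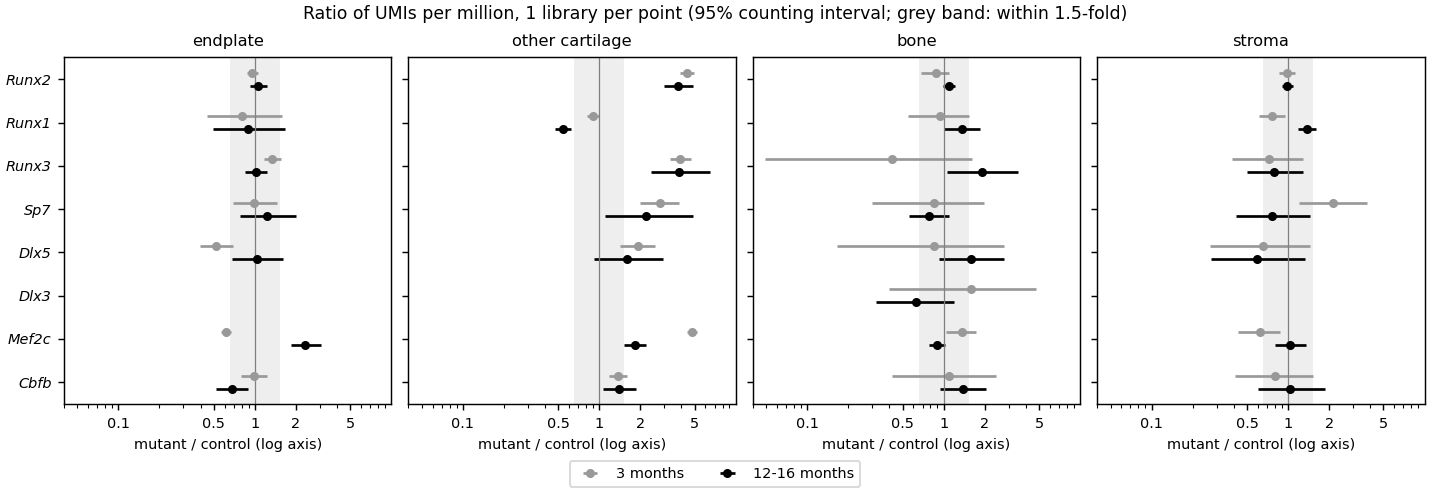
Ratio of CPM between the library labelled mutant and that labelled control (log axis) for each factor in the 4 gates, at 3 months and at 12-16 months, with 95% counting intervals and a grey band within 1.5-fold. In other cartilage Runx2 lies at 4.39 and 3.77, and in endplate cells at 0.958 and 1.06.

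Between ages, Runx2 stayed within 1.5-fold in endplate cells and other cartilage under both labels, and it was 1.26 (1.15 to 1.39) and 1.58 times (1.26 to 2.01) as high at 12-16 months in bone under the control and mutant labels, the second against the library with 5 bone cells. Without cells holding Ptprc, Cdh5 or Acta2 that second ratio was -0.01 on the log2 scale. Mef2c in endplate cells was at 0.189 times (0.147 to 0.239) under the control label and 0.715 times (0.641 to 0.795) under the mutant label. With every cell weighted equally, it went from 737 to 271 CPM under the control label and from 724 to 617 CPM under the mutant label. Runx1 was higher at 12-16 months in endplate cells, at 2.40 (1.13 to 5.20) and 2.63 times (1.67 to 4.11), from at most 51 UMIs in a library. In other cartilage it was at 1.79 times (1.60 to 2.00) under the control label and 1.08 times (0.953 to 1.22) under the mutant label. Between ages in endplate cells, 2 factors were past 1.5-fold upward and 1 downward under the control label (36.7% of all genes past it, 17.8% higher and 18.9% lower) and 3 upward under the mutant label (37.6%, 18.5% higher and 19.1% lower). In other cartilage 1 was higher under the control label (29%, 15.7% higher) and 1 lower, Mef2c, under the mutant label (23.1%, 11.4% lower). In bone 2 were higher and 2 lower under the control label (38.7%, 15.2% and 23.5%) and 4 higher under the mutant label (57.2%, 31% higher), again against the library with 5 bone cells. In stroma 1 was lower under the control label (37.2%, 20.2% lower), and 1 was higher and 2 were lower under the mutant label (39.6%, 25.8% and 13.8%). Most of these counts lay near the shares of all genes. With the label as a term in the same kind of fit over the 4 libraries of a gate, edgeR called no factor between ages in any gate, where 0.0627% (endplate), 1.43% (other cartilage), 0.43% (bone) and 0.405% (stroma) of all genes passed. At an unadjusted p under 0.05 there were 2 factors in endplate cells (Mef2c and Runx1), 1 in stroma (Sp7) and none in the other gates.

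Other genes of the same pathway were read from 6 lists written by hand. The median log2 ratio over all genes tested was -0.05 (endplate against other cartilage), -0.25 (bone against other cartilage), -0.19 (bone against endplate) and 0.09 (stroma against bone), the order in which list medians are given. Of all 14487 genes, 2816 (1269 higher), 3834 (1490 higher), 3508 (1546 higher) and 1379 (756 higher) passed in the same order. Counts of list genes called are to be read beside these. Of 12 other osteogenic factors 11 were tested, without Msx2, and their medians were -0.69, -0.50, -0.13 and -0.32. In endplate cells 4 were higher than in other cartilage, among them Dlx6, the neighbour of Dlx5 (2.41 ± 0.62), and the coactivator Wwtr1 (1.13 ± 0.24), and Cebpb (-3.10 ± 0.42), Fosl2 (-1.14 ± 0.24) and Trps1 (-0.78 ± 0.26) were lower. This list thus went both ways within cartilage. Bone had 4 factors above other cartilage, among them Creb3l1, a factor for collagen secretion (3.87 ± 0.29), and Dlx6 (3.60 ± 0.65). It had 5 below, led by Cebpb (-3.23 ± 0.44) and Zbtb16 (-3.09 ± 0.45), with Msx1 at only 2 UMIs in bone (CPM ratio 0.134, interval 0.0160 to 0.491). Against endplate cells, Creb3l1 (4.56 ± 0.33) and Maf (3.87 ± 0.42) were higher in bone, and Zbtb16 (-3.93 ± 0.44), Wwtr1 (-1.45 ± 0.26) and Trps1 (-1.18 ± 0.27) were lower. In stroma, Zbtb16 (2.45 ± 0.50) and Maf (1.83 ± 0.32) were above bone, and Creb3l1 (-2.53 ± 0.31) and Fosl2 (-1.94 ± 0.48) were below it.

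Of the 10 genes that restrain Runx2, 7, 5, 6 and 8 did not pass in the 4 comparisons. Their medians were -0.25, -0.26, 0.04 and 0.65, or 0.43 and 0.58 in the last 2 comparisons with genes at 0 set to their limit and genes with too few UMIs in both gates left out. In endplate cells 1 was higher than in other cartilage and 2 were lower, namely Smurf2 (0.67 ± 0.22), Zfp521 (-1.29 ± 0.26) and Twist2, which had 1 UMI in endplate cells (CPM ratio 0.0252, interval 0.000634 to 0.143). Twist1, whose product binds and blocks the RUNX2 DNA-binding domain, was higher in bone than in other cartilage (2.25 ± 0.35) and endplate cells (2.59 ± 0.37) and lower in stroma than in bone (-1.79 ± 0.38). Hdac5, a histone deacetylase, was the other one higher in bone (0.80 ± 0.29 and 1.47 ± 0.33). Nkx3-2, a repressor of Runx2 in chondrocytes, had no UMI in bone cells and was at least 1.83-fold lower there than in other cartilage and at least 4.02-fold lower than in endplate cells, taking 3 counts over the gate as the limit, and both differences passed the test. Twist2, also with no UMI in bone, was at least 3.98-fold lower than in other cartilage, where Zfp521 (-0.84 ± 0.29) was the last of the 3 lower ones, and Hdac4 (-0.99 ± 0.33) was the other one lower in bone than in endplate cells.

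The 11 RUNX cofactors had medians of 0.20, 0.01, -0.18 and 0.25. In endplate cells 1 of the 11 was higher than in other cartilage, Yap1 (0.61 ± 0.21), where 1269 of all 14487 genes were higher. None was called lower. In bone 2 were higher and 2 lower than in other cartilage, against 26.5% of all genes in either direction, with the corepressor genes Tle3 (2.24 ± 0.35) and Tle2 (1.40 ± 0.34) above and Tle4 (-3.67 ± 0.52) and Tle1 (-1.75 ± 0.37) below other cartilage. Against endplate cells, Tle3 (1.46 ± 0.37) was higher in bone and Tle4 (-3.64 ± 0.54) and Tle1 (-1.89 ± 0.38) were lower. Stroma had more Tle2 (1.61 ± 0.32) and Tle1 (1.52 ± 0.42) than bone. Of 9 relatives of the factors 5 were tested, without Dlx1, Dlx2, Dlx4 and Sp6, with medians of -0.19, 0.07, 0.06 and -0.27. Mef2a was the 1 that passed, higher in bone than in other cartilage (0.84 ± 0.29) and endplate cells (1.19 ± 0.30).

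Known targets were read beside the factors. Of 6 hypertrophy targets (median 1.41), 4 were higher in endplate cells than in other cartilage, namely Panx3 (1.99 ± 0.36), Prkg2 (1.84 ± 0.40), Pth1r (1.63 ± 0.33) and Ihh (1.18 ± 0.39). Vegfa, an angiogenic factor, was lower (edgeR adjusted p = 0.045), and Col10a1 did not pass. In bone, where Runx2 was higher, none was called higher, 3 were lower than in other cartilage and 4 lower than in endplate cells (medians -2.62 and -4.43, or -2.46 and -4.13 with genes at 0 set to their limit). Col10a1 and Ihh had no UMI in bone cells, which puts Col10a1 at least 184-fold and Ihh at least 21.7-fold lower than in other cartilage, and at least 282-fold and 63.3-fold lower than in endplate cells. The others called were Prkg2 (-4.74 ± 0.58 against other cartilage and -6.58 ± 0.58 against endplate cells) and, against endplate cells, Panx3 (-2.28 ± 0.45). Panx3 was also lower in stroma than in bone (-3.32 ± 0.85), the 1 call there (median -0.35, or -1.95 without Col10a1 and Ihh, which had at most 1 UMI in both gates).

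Of 11 bone targets, 8 were higher and 1 lower in bone than in other cartilage (median 4.99), led by Bglap2 (9.68 ± 0.89) and Bglap (9.20 ± 0.94), which encode osteocalcin, and Dmp1 (8.48 ± 0.62), a gene of osteocytes. Against endplate cells the numbers were also 8 and 1 (median 3.64), with Dmp1, which had no UMI in endplate cells, at least 587-fold higher, followed by Col1a2 (10.15 ± 0.62) and Bglap2 (8.63 ± 0.85). Tnfrsf11b, which encodes the osteoclast inhibitor osteoprotegerin, was the lower one both times, at -3.83 ± 0.44 and -4.41 ± 0.44. Bone cells were gated in part by Col1a1, so the counts for Col1a2 and other genes expressed in the same cells are not independent of the gate. Sost had no UMI in bone. In endplate cells, where Runx2 and Sp7 were above other cartilage, 1 bone target was higher (Alpl, alkaline phosphatase, 1.06 ± 0.30) and 1 lower (Col1a2, -2.58 ± 0.47), with a median of 0.59. In stroma none was called higher and 5 were lower than in bone, namely Bglap (-7.37 ± 0.88), Bglap2 (-6.40 ± 0.79), Col1a2 (-5.15 ± 0.50), Dmp1 (-3.17 ± 0.50) and Phex (-2.85 ± 0.53), with a median of -1.09 (-1.97 without Sost), while the difference in Runx2 did not pass the test.

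Over the 16 profiles of gate and library, on log2(CPM + 10), the genes whose levels were most like Runx2 among 9255 with at least 200 UMIs were Ptprd (r = 0.98), Fap (0.96), Col25a1 (0.95), Actn1 (0.94) and Peli2 (0.93). Those most like Sp7 were Ppic (0.93), Ctnnb1, which encodes β-catenin (0.91), Gpc1 (0.91), Fap (0.90) and Ptprd (0.90). Among the 8, Runx2 and Sp7 were the most alike pair (0.90), followed by Dlx5 and Cbfb (0.86), and Cbfb and Runx1 (-0.50) and Runx1 and Runx3 (-0.49) were the least alike. The profiles share libraries and gates, and these correlations describe them without a test.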

How the data were processed

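Single cells of 4 libraries, 1 per genotype and age, were analysed as UMI counts. The authors made these deposited counts with Cell Ranger 8.0.0 against mm10, per the file headers and the submitters' notes. Whether intronic reads were counted was not given in the sources used here. Where levels or detection of different genes stand side by side, they were not corrected for gene length. The study's ambient RNA correction (SoupX) was not repeated. No replicate libraries of a genotype and age were used, so ratios at 1 age or of 1 genotype carry no test and have exact binomial intervals that cover counting error only.

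Cells with over 750 UMIs, over 500 genes and mitochondrial UMIs under 7% were kept (2154537 to 9429264 UMIs a library, median 8189 to 12644 a cell). Doublets called by Scrublet in scanpy 1.11.5 (0 to 8 a library, expected 6%, score over 0.25, a limit set after seeing that the automatic one moved between runs) were kept, and left out as an alternative. Cells were gated in the order endplate, other cartilage, stroma, bone. UMIs were summed per gate and library, and genes with at least 20 UMIs over the 16 sums were tested in edgeR 4.0.16 (R 4.3.3; TMM, quasi-likelihood, library as a block, Benjamini-Hochberg over 14487 genes, threshold 0.05). On counts simulated from 1 average profile for endplate against other cartilage (14100 genes), 58% of 2-fold and 93% of 4-fold changes were recovered. The changed genes had at least 200 UMIs expected, so these rates do not cover genes with fewer. Genotype with age as a term, and age with genotype as a term, were fitted alike in each gate (4 libraries, 1 residual degree of freedom). On counts simulated in the same way for genotype in other cartilage (12770 genes), 52% of 2-fold and 98% of 4-fold changes were recovered. Thinned shares are exact expectations at 3000 UMIs a cell, over the cells that reached that depth. Coordinates came from GENCODE vM21 (GRCm38) and promoter sequences from RefSeq (GRCm38.p6). Python 3.11.15, numpy 2.4.6, scipy 1.17.1, pandas 2.3.3 and matplotlib 3.10.9 were used.

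All 8 members were described in each comparison. List genes were named where 5 or fewer of a list were called, or as the 3 highest and lowest called, and the 5 genes most like Runx2 and Sp7 by Pearson's r were named. Some list genes that this rule calls for are not reported here. Splits by Runx2, hypertrophy genes and Col1a1 are descriptions. The members, gates and lists were chosen with earlier results of these data known. Alternatives covered scaling, filters, gate order, thinning, doublets, DESeq2 1.42.0 and leaving out each library, and 3 were added after seeing the data (other cartilage cells without Zfp804b or Dab1, bone cells without Acta2, and the fits of genotype and age over all libraries).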

Additional observations from a re-analysis of the deposited data

Results flagged for a closer look

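The ratio of Mef2c between mutant-labelled and control-labelled endplate cells went in opposite directions at the 2 ages, at 0.619 at 3 months and 2.34 at 12-16 months, and the control-labelled 12-16-month value rested on 12 cells. With every cell weighted equally, the 3-month control-labelled and mutant-labelled endplate cells held 737 and 724 CPM. The 3-month difference thus depended on the weighting. In other cartilage the age ratio of Mef2c (12-16 over 3 months) was 1.3 in the control-labelled libraries and 0.497 in the mutant-labelled ones. In stroma the mutant over control ratio of Runx1 was 0.76 at 3 months and 1.37 at 12-16 months, and the control-labelled 12-16-month stroma held the raised immune markers given above. The intervals of each pair lie on opposite sides of 1, cover counting error only, and none of the 3 differences was tested, since each genotype and age was 1 library.

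The members also had UMIs in the 325 cells that no gate took. In the 239 of these without a Ptprc UMI, Mef2c was at 498 CPM, Runx1 at 245 CPM, Runx2 at 118 CPM, Cbfb at 50.3 CPM, Runx3 at 36.1 CPM, Dlx5 at 20.3 CPM, Sp7 at 12.8 CPM and Dlx3 at 5.26 CPM. These cells were shallow (median 4286 UMIs) and rich in mural and blood RNA, with Rgs5 at 4579 CPM and Hbb-bs at 12184 CPM. In the 86 cells with a Ptprc UMI, Runx1 was at 810 CPM, Mef2c at 487 CPM, Cbfb at 122 CPM, Runx2 at 113 CPM and Runx3 at 73.2 CPM.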

How the results depend on the processing

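The number of members called ranged from 5 to 7 (endplate against other cartilage, 6 as reported), 4 to 6 (bone against other cartilage, 5), 3 to 6 (bone against endplate, 5) and 0 to 4 (stroma against bone, 3) over the alternatives, and over the 4 fits without 1 library each from 6 to 7, 5 to 6, 4 to 5 and 2 to 4. The count fell to 3 for bone against endplate in sums over thinned cells, and for stroma against bone to 0 with bone before stroma and to 1 with gates on thinned cells. In these fits the cause was not tested, apart from the fewer cells and UMIs that they hold. Between ages, members past 1.5-fold in other cartilage went from 1 to 3 under either label with every cell weighted equally, and to 2 under the mutant label without Zfp804b or Dab1 cells. Small log2 ratios, none of them called as reported, changed sign. Runx1 in bone against other cartilage was -0.0288 with no filter, -0.0253 without profiles under 10 cells, -0.13 with long genes as library size, and -0.23 to 0.29 without 1 library. Runx3 there was -0.145 to 0.89 without 1 library. Dlx5 in bone against endplate was 0.80 and 0.44 with gates on and sums over thinned cells. In stroma against bone, Runx2 was -0.0225 without profiles under 10 cells, -0.32 with gates on thinned cells and -0.0245 in sums over them, and Runx3 was -1.03 with bone before stroma and -0.58 with gates on thinned cells. Among ratios between libraries in bone, Dlx3 at 3 months without doublets (-0.635), Runx1 by age under the control label with cells weighted equally (0.0048) and Runx2 by age under the mutant label without Ptprc, Cdh5 or Acta2 cells (-0.0132) changed sign.

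Each library gave all 4 gates, which is why the library was the block. With no replicate block the members called were 6, 5, 5 and 3 as before, and the genes called 2458, 3534, 3401 and 1171, against 2816, 3834, 3508 and 1379 with it. Between labels over both ages, the members called in other cartilage went from 4 with age as the block to 1 with no replicate block, and the genes called from 250 to 4. In the other gates, and between ages in all gates, 0 members were called with or without the block, with RLE size factors and with no filter. These fits were chosen after seeing the data, and leaving out a library leaves them no residual degree of freedom. With gates on thinned cells the genes called were 1362, 2188, 1364 and 377, in sums over thinned cells 1698, 2062, 1370 and 374, and with bone before stroma 253 for stroma against bone (3.56% higher, against 54.8%). For stroma against bone they were 887, 860 and 714 without the 3-month control, 12-16-month control and 12-16-month mutant library. With long genes as library size the median of all genes in endplate against other cartilage moved from -0.05 to -0.38 and the share higher among the called from 45.1% to 20.1%, in bone against other cartilage from -0.25 to -0.43, in bone against endplate from -0.19 to -0.03 and in stroma against bone from 0.09 to -0.12 (34.5% higher). Lost calls of single members were Dlx5 (adjusted p = 0.110) and Cbfb (0.303) in endplate against other cartilage with gates on thinned cells, Mef2c in bone against other cartilage with bone before stroma (0.0549), Runx1 in stroma against bone with gates on thinned cells (0.536, log2 ratio 0.6236) and with bone before stroma (0.781), Dlx3 and Mef2c there with bone before stroma (0.414 and 0.269), Sp7 in bone against endplate with bone before stroma (0.0558) and in sums over thinned cells (0.121), Runx2 in bone against endplate with bone before stroma (0.0629) and without 1 of 3 libraries (0.0515 to 0.119), and Mef2c in stroma against bone without the 12-16-month mutant library (0.0571). Dlx3 had too few UMIs to be tested in both fits on thinned cells.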
